A study of Mus musculus with 8 samples.

Results

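Fatty acid oxidation genes and target genes of the nuclear receptor PPARα were followed in 8 liver RNA libraries, 4 from mice given a control antibody (IgG) and 4 from mice given an antibody against CD47. The set holds 38 genes taken from a fixed list by symbol, of 54309 genes in the count table, and all 38 were measured and passed the filter on low counts. They were divided by where the encoded protein works: 19 mitochondrial, 9 peroxisomal, 4 found in both organelles and 6 elsewhere (the cytosol, the endoplasmic reticulum, the cell surface, the nucleus or outside the cell). The mice were male C57BL/6J (strain label C57BL/6) and every one of them, controls included, had eaten a diet of fructose, palmitate and cholesterol for 16 weeks, which produces steatohepatitis, a fatty, inflamed and scarred liver. Antibody was injected into the peritoneum from week 8 to week 16, at 200 µg of anti-CD47 per mouse. CD47 is a surface protein that restrains engulfment by macrophages through its receptor SIRPα. Each treatment had 7 to 8 mice by the design text, but no label ties a library to an animal, and the p-values therefore measure the spread between libraries, which may be technical. The libraries, called IgG 1 to 4 and antiCD47 1 to 4, held 43691472 to 55477484 counts each. There is no group without the diet, so a normal liver level is not part of the comparison.

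Liver cells burn fatty acids in mitochondria, where carnitine carries long chains across the membranes and a cycle of dehydrogenases, hydratases and thiolases removes acetyl-CoA. Peroxisomes shorten very long and branched chains and dicarboxylic acids by a parallel set of enzymes, and the CYP4A enzymes of the endoplasmic reticulum make the dicarboxylic precursors by oxidising the far end of the chain. PPARα, a receptor for fatty acids that pairs with RXR, switches on genes of all these routes in fasting and under fibrate drugs, and its mouse liver targets include the thioesterases, the CYP4A genes and the hormone gene Fgf21.

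Acot1, Acot3 and Ehhadh rose and Bdh1 fell in the antiCD47 libraries, by the quasi-likelihood test of edgeR with Benjamini-Hochberg adjustment over all genes and a threshold of 0.05. These 4 made up 10.5% of the 38 genes, where 10.8% of all 15472 genes tested passed, 5.44% higher and 5.4% lower, so the set as a whole was called at the background rate. The libraries of the treatments did not overlap in 4 genes that were higher (the 3 above and Fgf21) and 1 that was lower, against 9.51% and 10.1% of all genes tested. For Fgf21 this rests on a tie in all printed digits, 6.02 CPM in the highest control and in the lowest antiCD47 library. All genes of the set but Fgf21 had a mean of 10 CPM or more. Of the 7877 genes tested at that level, 11.5% passed, 627 higher and 282 lower. Libraries did not overlap in 1097 of those 7877 that were higher and 549 that were lower. In the authors' deposited table, 6 of the 38 had an adjusted p under 0.05 (Acot1, Acot2, Acot3, Cyp4a14, Ehhadh and Bdh1), where 18.4% of the genes in that table did.

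By compartment, 0 of the 19 mitochondrial genes rose and 1 fell (2 had an unadjusted p under 0.05, and DESeq2 and voom with quality weights both called Acot2 higher), and 2 of the 9 peroxisomal genes rose and 0 fell. Of the 4 genes of both organelles 0 passed, had an unadjusted p under 0.05, or were called by DESeq2 or voom. Of all 15472 genes tested, 5032 had an unadjusted p under 0.05 by edgeR, DESeq2 called 3174 and voom 4331. All counts of these kinds given below stand beside that background. The median log2 fold change was -0.02 for the mitochondrial genes, 0.10 for the peroxisomal genes and 0.36 for the 6 others, beside -0.01 for all genes. For the 7877 genes at a mean of 10 CPM or more it was 0.04. With library totals alone, without scaling for composition, the compartment medians were -0.20, -0.082 and 0.18 in the same order, beside -0.19 for all genes. The sign of the peroxisomal median thus flips with the scaling. Set against the median of all genes in the same fit, the peroxisomal median was 0.10 higher with the usual scaling and 0.11 higher with library totals. A change of scaling moves all genes by nearly the same amount, so this difference could hardly move with it. Over the fits that left out 1 library, the difference ran from 0.041 (without IgG 4) to 0.15 (without antiCD47 2). Under library totals 0 genes of the set passed as higher and 5 as lower. In each fit that left out 1 library, all 4 called genes had an unadjusted p under 0.05. That is no independent support, since the 4 were picked by their p-values in these same libraries, most of which each fit reuses. The number called in the set was 0 without IgG 1, IgG 3, IgG 4 or antiCD47 3, fits in which 174, 92, 2 and 21 of all genes passed. Without antiCD47 2 only Acot3 was called, without antiCD47 4 only Acot1, and without IgG 2 Ehhadh, Acot1, Acot2, Cyp4a14 and Pdk4. The fit without antiCD47 1 called Ehhadh, Acot1, Acot3, Cyp4a14 and Bdh1, and 3630 of all genes passed in it.

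**Figure D1:**
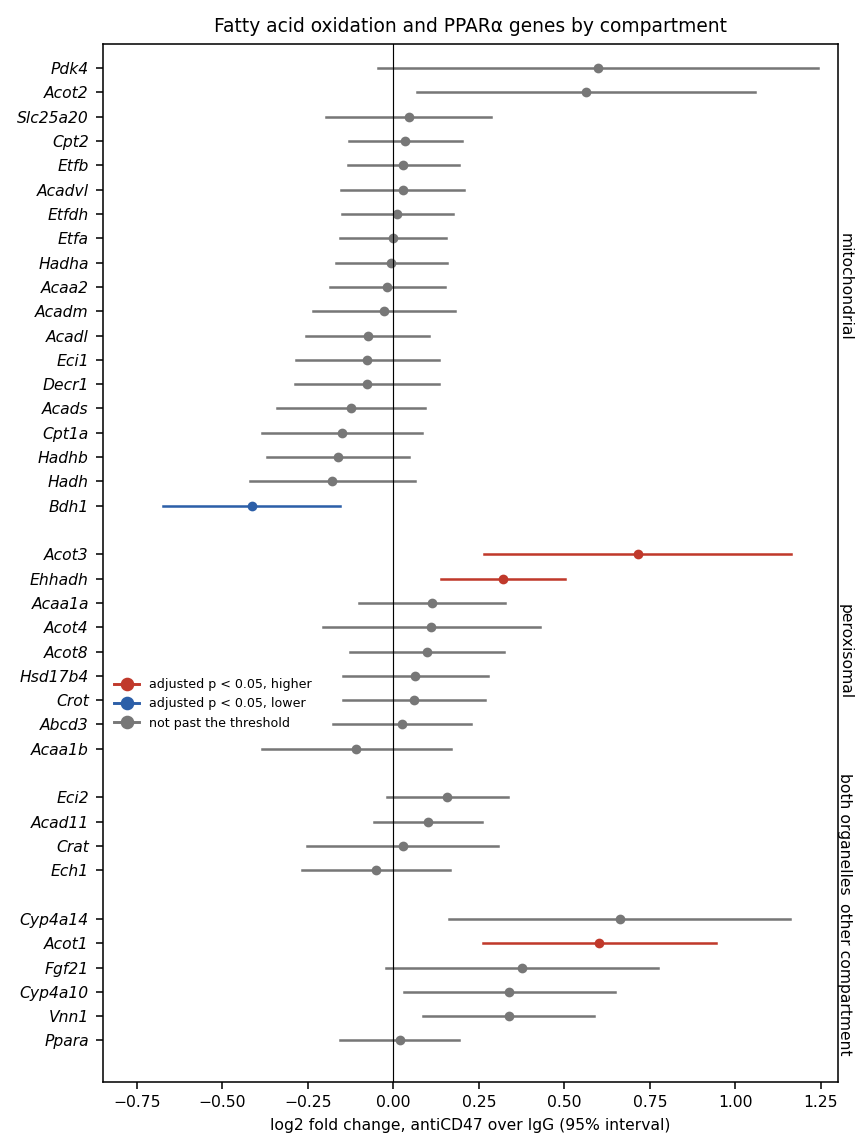
Log2 fold change of antiCD47 over IgG for all 38 genes (points) with 95% intervals (lines), arranged by compartment, with colour for adjusted p under 0.05. The mitochondrial genes gather around 0 apart from Bdh1, Acot2 and Pdk4, and the genes of other compartments apart from Ppara lie to the right; with library totals alone the values shift to lower ones, as the median of all genes does (-0.19).

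The promoters of the acyl-CoA thioesterase genes Acot1 to Acot4 are shown because these 4 neighbouring copies of 1 gene family hold 2 of the 4 calls. Thioesterases split acyl-CoA into free fatty acid and coenzyme A: ACOT1 does so in the cytosol, ACOT2 in mitochondria, and ACOT3 and ACOT4 in peroxisomes. The 250 bases before each gene's start are given 5′ to 3′ (RefSeq, GRCm38.p6, all on the + strand), at chr12:84009252-84009501 for Acot1, chr12:83987611-83987860 for Acot2, chr12:84051894-84052143 for Acot3 and chr12:84038129-84038378 for Acot4. Capitals mark CCAAT on either strand and, in Acot4 alone of these, GGNCANAGGNCA, a relaxed form of the paired AGGTCA half-sites that PPARα and RXR bind.
Acot1: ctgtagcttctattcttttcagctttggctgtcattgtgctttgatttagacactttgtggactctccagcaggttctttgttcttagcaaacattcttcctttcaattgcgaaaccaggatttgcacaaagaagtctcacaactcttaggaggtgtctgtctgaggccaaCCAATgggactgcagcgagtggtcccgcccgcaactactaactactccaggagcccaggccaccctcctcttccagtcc
Acot2: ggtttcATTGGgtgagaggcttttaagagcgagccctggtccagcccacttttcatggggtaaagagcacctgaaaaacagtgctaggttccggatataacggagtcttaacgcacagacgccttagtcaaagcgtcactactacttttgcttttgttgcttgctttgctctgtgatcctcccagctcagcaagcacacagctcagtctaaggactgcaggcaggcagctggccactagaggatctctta
Acot3: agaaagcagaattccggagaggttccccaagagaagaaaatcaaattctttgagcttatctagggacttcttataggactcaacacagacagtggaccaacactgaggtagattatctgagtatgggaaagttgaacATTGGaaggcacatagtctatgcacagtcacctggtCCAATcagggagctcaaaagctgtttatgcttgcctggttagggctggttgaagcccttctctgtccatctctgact
Acot4: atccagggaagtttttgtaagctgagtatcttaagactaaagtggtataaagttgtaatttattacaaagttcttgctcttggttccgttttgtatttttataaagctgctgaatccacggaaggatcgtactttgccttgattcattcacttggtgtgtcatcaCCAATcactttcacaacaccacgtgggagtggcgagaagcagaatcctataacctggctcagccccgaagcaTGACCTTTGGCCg
The paired motif lay at bases -13 to -2 of Acot4, on the minus strand, and overlaps a single half-site AGGTCA there. It was present in 0.694% of 32851 RefSeq windows of this length and in 1 of the 31 genes of the set with a window. Cyp4a10, Cyp4a14 and Vnn1 were among the genes without a window and were not searched. AGGTCA, on either strand, was in 14.0% of all windows and in 4 of the 31 genes (Acadm, Acadvl, Acot4 and Cpt1a), and CCAAT was in 33.8% of all windows and in 17 of the 31 genes. A gene of the set was counted if any of its windows matched, and some genes, such as Acot3, have more than 1 window. The shares of windows and of genes are thus in unlike units. A match is a run of letters, not a bound site, and these windows do not reach the distant elements of a gene. Aligned end to end, the Acot1 and Acot2 windows were 45.2% identical, while their open reading frames were 85.5% identical.

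Levels are given as CPM, a gene's share of a library's counts after scaling between libraries. Acot1 was at 55.4, 60.7, 54.8 and 43.9 CPM in IgG 1 to 4 and at 66.6, 77.2, 74.3 and 108 CPM in antiCD47 1 to 4. All 4 antiCD47 libraries lay above all 4 IgG libraries, with antiCD47 4 the highest. Its log2 fold change was 0.60 ± 0.15 (SE), 1.52-fold with a 95% interval of 1.20 to 1.92 (edgeR adjusted p = 0.038, as for every adjusted p below unless another tool is named). Acot3 was at 34.3, 44.8, 38.7 and 41.4 CPM in IgG and at 49.4, 48.8, 68.0 and 95.2 CPM in antiCD47. The treatments did not overlap here either, and antiCD47 4 again stood highest. The log2 fold change of Acot3 was 0.71 ± 0.20 (adjusted p = 0.0499). In the fit without antiCD47 4 it was 0.48 (adjusted p = 0.0554; 0.00501 to 0.127 over all alternatives).

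Acot2 was at 34.0, 55.2, 35.4 and 27.5 CPM in IgG and at 44.9, 45.9, 62.8 and 71.1 CPM in antiCD47. The libraries overlapped because IgG 2 lay above antiCD47 1 and antiCD47 2. Its log2 fold change was 0.56 ± 0.22 (adjusted p = 0.114), and 0.80 in the fit without IgG 2 (adjusted p = 0.0329; 0.0162 to 0.231 over all alternatives). Acot4 was at 135, 149, 122 and 117 CPM in IgG and at 143, 106, 138 and 177 CPM in antiCD47, a log2 fold change of 0.11 ± 0.14 (adjusted p = 0.617). Its antiCD47 libraries held both the lowest and the highest of the 8 values. The last thioesterase of the set, the peroxisomal Acot8, was at 0.10 ± 0.10. Reads of these copies can be hard to place: 28.9% of the stretches of 31 bases in Acot1 transcripts also occur in Acot2, and 11.9% in Acot3, so part of a change in one copy could be counted in another. Over the whole family, Acot5 and Acot6 included, the shared stretches made up 37.8% of Acot1, 34.4% of Acot2, 11.2% of Acot3 and 5.86% of Acot4.

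**Figure D2:**
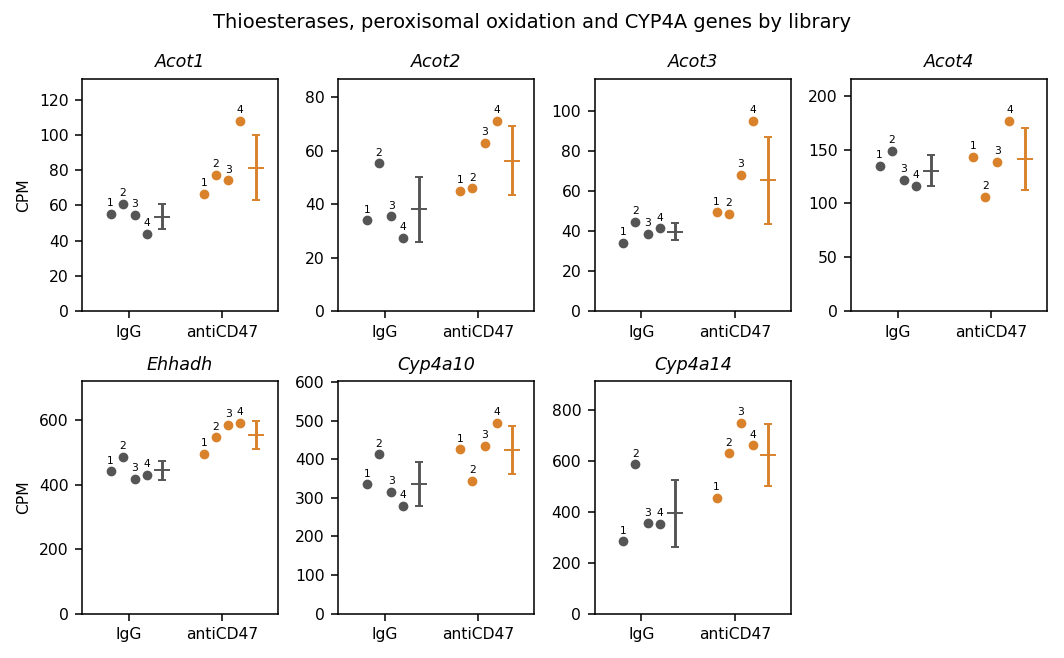
CPM of each library (points, labelled by replicate number) with mean and SD beside them, for 4 thioesterase genes, the peroxisomal gene Ehhadh, and Cyp4a10 and Cyp4a14. In Acot1, Acot3 and Ehhadh every antiCD47 point lies above every IgG point; in Acot2, Cyp4a10 and Cyp4a14 IgG 2 reaches into the antiCD47 range.

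Among the peroxisomal genes other than thioesterases, Ehhadh rose and the others did not pass. EHHADH is the bifunctional hydratase and dehydrogenase of the classical peroxisomal cycle. It was at 442, 486, 419 and 432 CPM in IgG and at 496, 547, 586 and 592 CPM in antiCD47, without overlap, and antiCD47 1 came closest to the control range. The log2 fold change was 0.32 ± 0.08, 1.25-fold with an interval of 1.10 to 1.42 (adjusted p = 0.0382). With library totals it was 0.14 (adjusted p = 0.22; 0.00209 to 0.22 over all alternatives). Hsd17b4, the other bifunctional enzyme, was at 0.06 ± 0.10 on the log2 scale, the octanoyl transferase gene Crot at 0.06 ± 0.09 and the fatty acyl-CoA importer gene Abcd3 at 0.03 ± 0.09. Acaa1a and Acaa1b encode the thiolase that closes the cycle. Acaa1b was at 2811, 2839, 2699.7 and 2428 CPM in IgG and at 2859, 2003, 2828 and 2309 CPM in antiCD47, with antiCD47 2 and antiCD47 4 below every control and a log2 fold change of -0.11 ± 0.12 (adjusted p = 0.571). Acaa1a was at 228, 244, 219 and 195 CPM in IgG and at 245, 224, 273 and 215 CPM in antiCD47, at 0.11 ± 0.10 (adjusted p = 0.437), and its libraries overlapped. The open reading frames of these thiolase genes are 96.5% identical and 45.7% of the stretches of 31 bases in Acaa1b recur in Acaa1a, so the split between them is uncertain.

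Of 32 further peroxisomal enzymes and transporters tested (33 listed), 2 rose and 2 fell by edgeR, and 6 had an unadjusted p under 0.05. DESeq2 called 2 of the 32 higher and 3 lower, and voom 2 higher and 4 lower. The gene of the alpha-oxidation lyase Hacl1 rose (1.11) and so did Baat (0.32), which conjugates bile acids, while Abcd2 (-0.54), an importer of very long chains, and Nudt19 (-0.26), a coenzyme A hydrolase gene, fell. Hacl1 passed in 17 of 17 alternatives, Abcd2 in 13, Baat in 11 and Nudt19 in 8; with library totals Baat was at 0.13 (adjusted p = 0.172; 0.00509 to 0.172 over all) and Nudt19 at -0.45 (adjusted p = 0.0147; 0.00972 to 0.127 over all). Of 17 genes listed for peroxisome biogenesis, 0 rose and 1 fell, Pex5l, which was at 0.454 ± 0.0484 CPM in IgG and 0.137 ± 0.0575 CPM in antiCD47 (SD, n = 4 each). At an unadjusted p under 0.05, 4 of the 17 passed in either direction, and DESeq2 called 1 higher and voom with quality weights 2. Pex11a, a PPARα target that acts in peroxisome division, was at 274 ± 27.2 and 272 ± 30.7 CPM (adjusted p = 0.948), and Cat, the catalase gene, at 0.05 ± 0.08 on the log2 scale.

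No gene of the core mitochondrial machinery passed the test. Taken by role, 16 mitochondrial genes of the carnitine shuttle, the oxidation cycle and electron transfer had log2 fold changes between -0.18 and 0.04, with a median of -0.02. By edgeR 0 of the 16 passed and 0 had an unadjusted p under 0.05, and neither DESeq2 nor voom with quality weights called any of them. Their 95% intervals ran from -0.42 at the lowest bound to 0.29 at the highest, so larger changes lie outside the interval of each gene. With library totals alone, Acadl, Acads, Hadhb and Hadh passed as lower, in a fit where the median of all genes was itself -0.19.

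Cpt1a, the outer membrane gate of the carnitine shuttle and the usual control point of mitochondrial oxidation, was at 784, 756, 782 and 727 CPM in IgG and at 818, 581, 715 and 633 CPM in antiCD47. The highest and the lowest of the 8 values both came from antiCD47 libraries, and the log2 fold change was -0.15 ± 0.10 (adjusted p = 0.344). Cpt2 (0.04 ± 0.07) and the carrier gene Slc25a20 (0.04 ± 0.11), the inner steps of the shuttle, did not pass. The acyl-CoA dehydrogenases, which take the first step for successive chain lengths, had log2 fold changes of 0.03 (Acadvl), -0.07 (Acadl), -0.03 (Acadm) and -0.12 (Acads). Hadha, the alpha subunit of the mitochondrial trifunctional protein, was at 418, 418, 380 and 391 CPM in IgG and at 430, 369, 412 and 389 CPM in antiCD47, with overlapping libraries and a log2 fold change of -0.01 ± 0.07 (adjusted p = 0.962). Its partner subunit gene Hadhb was at -0.16 ± 0.09, the short chain dehydrogenase gene Hadh at -0.18 ± 0.11 and the thiolase gene Acaa2 at -0.02 ± 0.08. The flavoprotein genes Etfa, Etfb and Etfdh, which pass electrons to the respiratory chain, were at -0.00068, 0.030 and 0.011, and the treatments overlapped in each. The helper enzymes for unsaturated chains, Eci1 (-0.08) and Decr1 (-0.08) in mitochondria and Eci2 (0.16) and Ech1 (-0.05) in both organelles, did not pass, and neither did Acad11 (0.10) or the carnitine acetyltransferase gene Crat (0.03).

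Bdh1 was the mitochondrial gene that fell. It encodes the dehydrogenase that turns acetoacetate into β-hydroxybutyrate, the main circulating ketone body. Its levels were 363, 370.0, 373 and 338 CPM in IgG and 335, 222, 277 and 250.2 CPM in antiCD47. The treatments did not overlap, but antiCD47 1 lay only just under IgG 4. The log2 fold change was -0.41 ± 0.12, 0.751-fold with an interval of 0.627 to 0.899 (adjusted p = 0.0496), and with DESeq2 size factors the adjusted p was 0.0505 (0.00749 to 0.125 over all alternatives). Of 6 further ketone body genes, 1 rose: Slc16a1, the monocarboxylate transporter through which ketone bodies and lactate cross the membrane (0.46 ± 0.10, adjusted p = 0.025). With library totals it was 0.27 (adjusted p = 0.0373; 0.000531 to 0.0797 over all alternatives). By edgeR 0 of the 6 fell, and 3 of them had an unadjusted p under 0.05 in either direction. DESeq2 and voom each called 2 of the 6 higher and 0 lower.

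Pdk4 encodes a mitochondrial kinase that inactivates pyruvate dehydrogenase and so limits the use of pyruvate when fat is burned. It was at 26.8, 58.6, 31.2 and 27.1 CPM in IgG and at 35.1, 59.0, 49.3 and 74.3 CPM in antiCD47. IgG 2 stood at the level of antiCD47 2, apart from the 3 other controls. The log2 fold change of 0.60 ± 0.29 did not pass (adjusted p = 0.18), and without IgG 2 it was 0.94 (adjusted p = 0.0369; 0.0369 to 0.348 over all alternatives). Of 25 further mitochondrial enzymes, 1 rose, Acadsb (0.32 ± 0.06), the dehydrogenase of branched short chains from isoleucine, and 0 fell by edgeR. By edgeR 6 of the 25 had an unadjusted p under 0.05, beside 5032 of all 15472 genes tested. DESeq2 called 2 of the 25 lower and voom 3, in fits that called 1491 and 2198 of all genes lower. In all, 20 of the 25 had log2 fold changes below 0, as did 7889 of all 15472 genes tested. The median of the 25 was -0.17, beside -0.01 for all genes. Libraries did not overlap in 1 gene of the 25 that was higher and 3 that were lower, against 9.51% and 10.1% of all genes tested. With library totals Acadsb was at 0.13 (adjusted p = 0.102; 3.3e-05 to 0.102 over all alternatives).

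**Figure D3:**
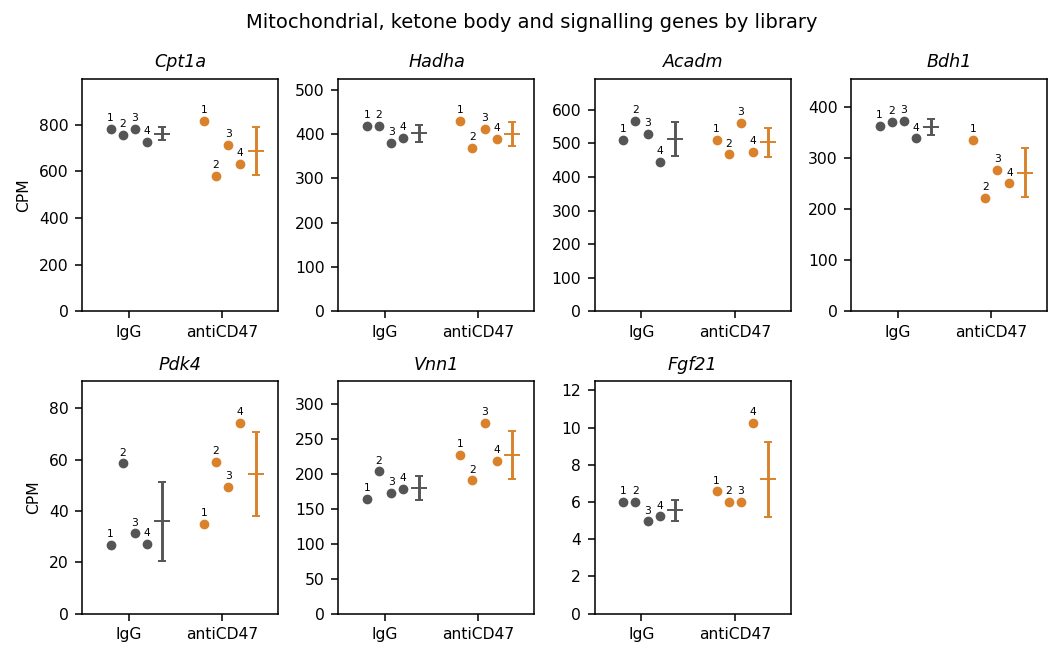
CPM of each library (points, labelled by replicate number) with mean and SD, for mitochondrial oxidation genes (Cpt1a, Hadha, Acadm), the ketone body gene Bdh1, Pdk4, Vnn1 and Fgf21. In Bdh1 all antiCD47 points lie below all IgG points, and in Pdk4 IgG 2, at 58.6 CPM, stands above the other controls.

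Of the 6 genes whose proteins work outside both organelles, Acot1 and Ppara among them, only Acot1 passed by edgeR, while DESeq2 also called Cyp4a14 and Vnn1, and voom with quality weights Cyp4a10, Cyp4a14 and Vnn1; all 6 had log2 fold changes above 0, or 5 of 6 with library totals. Cyp4a14 was at 283, 586, 354 and 351 CPM in IgG and at 454, 629, 748 and 660.5 CPM in antiCD47. IgG 2 was again the control that overlapped, lying above antiCD47 1, and the log2 fold change was 0.66 ± 0.22 (adjusted p = 0.0792). Without IgG 2 it was 0.92 (adjusted p = 0.0203; 0.0113 to 0.185 over all alternatives). Cyp4a10 was at 335, 413, 316 and 278 CPM in IgG and at 426, 343, 435 and 494 CPM in antiCD47, at 0.34 ± 0.14 (adjusted p = 0.124), and antiCD47 2 fell inside the control range. Cyp4a10 shares 44.9% of its stretches of 31 bases with Cyp4a31 and Cyp4a32, which were at -0.07 ± 0.21 and -0.02 ± 0.12, while Cyp4a14 shares 0.0811% with these 3 copies. Vnn1, the pantetheinase gene that is among the most responsive PPARα targets in mouse liver, was at 164, 203, 172 and 179 CPM in IgG and at 226, 191, 272 and 219 CPM in antiCD47. Only antiCD47 2 lay within the control range, and the log2 fold change of 0.34 ± 0.11 did not pass (adjusted p = 0.0755; 0.00818 to 0.33 over all alternatives). Fgf21, a hormone gene that PPARα drives in fasting, was at 6.01, 6.02, 4.95 and 5.22 CPM in IgG and at 6.57, 6.02, 6.02 and 10.2 CPM in antiCD47. Those ranges touch, since antiCD47 2 and antiCD47 3 were level with IgG 2, and the log2 fold change was 0.38 ± 0.18 (adjusted p = 0.175). Of 45 further PPARα targets tested (46 listed), 1 rose and 2 fell by edgeR. Retsat (0.41), a retinol saturase gene, rose, while Txnip (-0.51), which restrains glucose uptake, and the keratin gene Krt23 (-1.16) fell. Of the 45, 7 had an unadjusted p under 0.05 by edgeR. DESeq2 called 3 of the 45 higher and 3 lower, and voom 6 higher and 7 lower. Libraries did not overlap in 2 of the 45 that were higher and 0 that were lower, against 9.51% and 10.1% of all genes tested. With library totals Retsat was at 0.22 (adjusted p = 0.0433; 8.7e-05 to 0.075 over all alternatives). Txnip passed in 12 of 17 alternatives (adjusted p 0.00111 to 0.0862) and Krt23 in 12 (0.000886 to 0.100). Both genes overlapped between treatments. Txnip was at 144.6 CPM in antiCD47 1, just above IgG 2 at 144.1 CPM. Krt23 was at 3.78 CPM in antiCD47 4, above IgG 2 at 3.49 CPM. Plin2, the lipid droplet coat gene, was at 0.25 ± 0.15 and Angptl4, a lipase inhibitor gene, at 0.11 ± 0.15.

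Ppara itself did not pass, while the coactivator gene Ppargc1a and the receptor gene Esrra fell. Ppara was at 148, 159.6, 160.0 and 141 CPM in IgG and at 141, 170.1, 148 and 157 CPM in antiCD47, with fully overlapping libraries and a log2 fold change of 0.02 ± 0.08 (adjusted p = 0.888). Its 95% interval ran from 0.898-fold to 1.14-fold. Of 18 receptors, partners and coregulators, 2 rose and 2 fell by edgeR, and 7 had an unadjusted p under 0.05. DESeq2 and voom each called 4 of the 18 higher and 2 lower. Ppargc1a, the coactivator PGC-1α that works with PPARα on mitochondrial oxidation genes, was at 11.1, 9.64, 14.2 and 12.2 CPM in IgG and at 6.77, 4.99, 4.63 and 7.43 CPM in antiCD47, and fell by 0.99 on the log2 scale (SE 0.17, adjusted p = 0.0176). Esrra, an orphan receptor that acts with PGC-1α, was at 27.5, 26.3, 26.5 and 24.0 CPM in IgG and at 21.2, 15.9, 14.7 and 19.2 CPM in antiCD47, a log2 fold change of -0.55 ± 0.11 (adjusted p = 0.025). Neither gene's libraries overlapped between treatments. The corepressor gene Ncor1 rose by 0.33 ± 0.09 (adjusted p = 0.0458) and Nrbf2, whose protein binds nuclear receptors and also serves in autophagy, by 0.41 ± 0.11 (adjusted p = 0.0446). Of 17 alternatives Ncor1 passed in 7 and Nrbf2 in 9; with library totals Ncor1 was at 0.14 (adjusted p = 0.286; 0.00943 to 0.286 over all) and Nrbf2 at 0.22 (adjusted p = 0.079; 0.00867 to 0.122 over all), while Ppargc1a passed in 13 and Esrra in 12. Rxra, the pairing partner, was at 0.19 ± 0.07 (adjusted p = 0.109). Among 19 genes of fatty acid uptake, binding and activation tested (20 listed), 2 rose, the carnitine transporter gene Slc22a5 (0.68 ± 0.17) and the bile acid and fatty acid ligase gene Slc27a5 (0.31 ± 0.09), and 0 fell by edgeR. Of the 19, 5 had an unadjusted p under 0.05, and DESeq2 called 1 lower and voom 2. Slc22a5 passed in 12 of 17 alternatives and Slc27a5 in 7, the latter at 0.12 with library totals (adjusted p = 0.17; 0.00731 to 0.17 over all). Cd36 (0.17 ± 0.13) and Fabp1 (0.04 ± 0.13) did not pass.

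**Figure D4:**
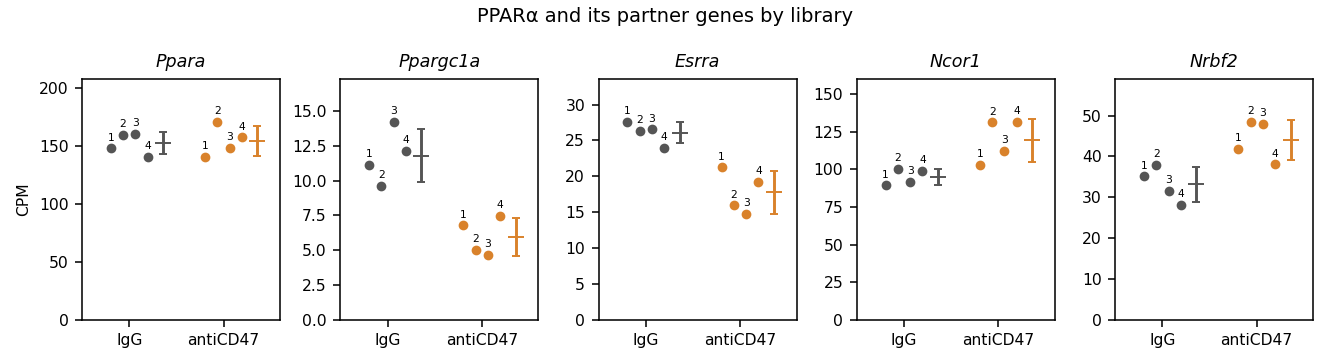
CPM of each library (points, labelled by replicate number) with mean and SD for Ppara and 4 partner or coregulator genes. Ppara overlaps between treatments, the antiCD47 points of Ppargc1a and Esrra lie below all IgG points, and those of Ncor1 and Nrbf2 lie above them.

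**Figure D5:**
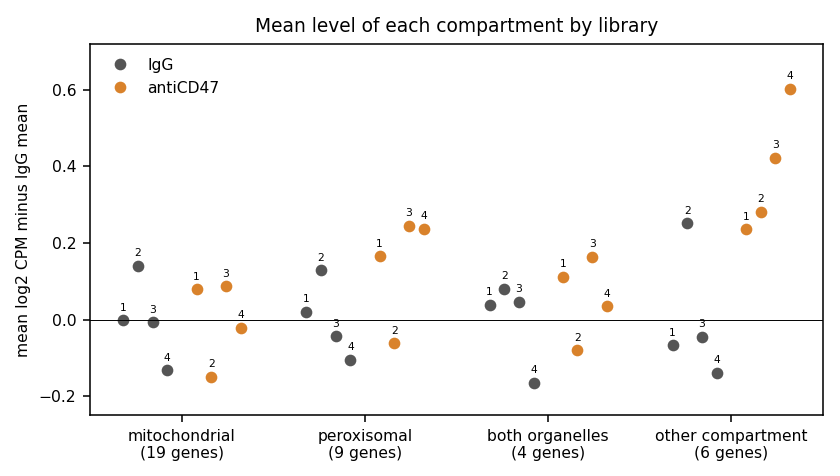
Mean over the genes of a compartment of log2 CPM minus the IgG mean, 1 point per library labelled by replicate number. Mitochondrial points of both treatments share 1 range, from -0.15 to 0.14; in the peroxisomal and the other genes antiCD47 3 and antiCD47 4 are the highest points. With library totals alone the peroxisomal median is -0.082, below 0.

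Single libraries moved across many genes of the set at once. IgG 2 was the highest control in 27 of the 38 genes and IgG 4 the lowest in 29. The lowest antiCD47 library was antiCD47 2 in 25 genes, among them 12 of the 16 mitochondrial genes taken by role. This order of libraries was not counted over all genes tested, so it is not shown to be particular to the set. The mean deviation of the mitochondrial genes was 0.14 in IgG 2 and -0.13 in IgG 4, and between -0.15 (antiCD47 2) and 0.09 (antiCD47 3) in the antiCD47 libraries. For the genes of other compartments it was 0.25 in IgG 2, -0.14 to -0.04 in the 3 other controls, and 0.24, 0.28, 0.42 and 0.60 in antiCD47 1 to 4. The share of all counts taken by the 38 genes, which is not scaled between libraries, was 1.40 to 1.53% in IgG and 1.11 to 1.41% in antiCD47, with antiCD47 2 the lowest. Per kilobase of transcript, the highest level in IgG was that of Acaa1b (1595 CPM per kb), followed by Acaa2 (480.1) and Hadh (288), and the lowest were Pdk4 (10.3) and Fgf21 (5.84). Acot1 (23.6), Acot2 (17.3) and Acot3 (11.6 CPM per kb) stood near the bottom of that order.

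Bulk liver RNA cannot tell fewer cells of a type from less RNA per cell. Hepatocyte markers summed to 71752 to 78323 CPM in IgG and 72479 to 84816 CPM in antiCD47, and 1 of the 14 rose (Hnf4a, 0.58) while 0 fell by edgeR and 1 by DESeq2 and by voom, with 3 of 14 under an unadjusted p of 0.05. Of 8 periportal hepatocyte markers 2 fell by edgeR (Hal, -0.43, and Aldh1b1, -0.70), with 4 under an unadjusted p of 0.05 and 5 of 8 below 0. DESeq2 called 4 of the 8 lower and voom 2. Of 9 pericentral markers 0 passed by edgeR, with 6 under an unadjusted p of 0.05 and 8 of 9 above 0. DESeq2 called 4 of the 9 higher and voom 3. Kupffer cell markers rose in 6 of 7 (summed 170 to 315 CPM in IgG, 331 to 619.5 in antiCD47), neutrophil markers in 5 of 5 tested (5.91 to 8.09 and 13.8 to 31.01 CPM), biliary markers fell in 6 of 7 (47.2 to 60.9 and 19.0 to 32.0 CPM) and stellate cell markers in 2 of 6 (655 to 957 and 430.5 to 602 CPM). Of 7 adipocyte markers, 3 reached the filter and 0 of these passed or had an unadjusted p under 0.05, and DESeq2 and voom called 0. The list summed to 51.5 to 64.8 CPM in IgG and 38.4 to 110.1 CPM in antiCD47, nearly all of it Cfd (log2 fold change 0.79, adjusted p = 0.167) and Lipe (-0.13, adjusted p = 0.568). The others were Adrb3, at 0.631 to 1.14 CPM, and Adipoq, Plin1, Retn and Lep, with 6, 9, 10 and 0 counts over all 8 libraries. Of 7 striated muscle markers 0 reached the filter, and they summed to 0.149 to 1.05 CPM in IgG and 0.0197 to 0.301 CPM in antiCD47; Mb had 0 counts and Ckm 1. Of 12 general mitochondrial genes (Cs, Vdac1 and others), 1 rose, the chaperone gene Hspd1 (0.29), and the median was -0.08. The part of cell makeup, other tissue or liver zone in the changes of the set was not tested.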

How the data were processed

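Polyadenylated RNA of whole liver was sequenced from TruSeq libraries, 4 per treatment, per the labels' protocols. The authors deposited unnormalized estimated counts for each Ensembl gene, already in whole numbers, so no rounding was needed. The submitters' processing notes name Salmon 1.3.0 and DESeq2 1.32.0 as tools and GRCm39 as the build, but say nothing of their roles. The authors' deposited comparison table holds, per the file headers, a mean normalized count (a signal), a log2 fold change, p-values and adjusted p-values and a rank score; which group served as reference was not stated, and only its adjusted p-values were used.

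Genes were named by that table or, failing that, by a GENCODE annotation (51499 of 54309 IDs), columns were matched by title and 0 value columns were left unused. Total counts were 43691472 to 55477484 per library; libraries of the same treatment differed by far more than sampling noise (lowest chi-square over its degrees of freedom 26.0). Filtering (filterByExpr), TMM scaling and the 2-sided quasi-likelihood test ran in edgeR 4.0.16 (R 4.3.3) on 15472 genes, with Benjamini-Hochberg adjustment over all of them and a threshold of 0.05; the test was checked on simulated counts. SE is the log2 fold change over the root of F. The mean deviation per library uses log2 CPM with a prior count of 2. Transcript lengths and shared stretches come from GENCODE M21 (GRCm38), with the longest open reading frame of 1 principal transcript per gene aligned in Biopython 1.88; promoter windows come from RefSeq. Figures were drawn with matplotlib 3.10.9.

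The genes, their compartments, the pathway and marker lists and the rule for named genes (genes past the threshold, close copies, and a list of key genes whatever their result) were chosen with earlier results of these data known; 1 listed gene, Gyk, matched none. Results for some listed genes are not reported here. Alternatives were 3 scalings, 2 filters, DESeq2 1.42.0, voom with quality weights (limma 3.58.1), a replicate block and leaving out each library. A fit without both IgG 2 and antiCD47 2 was chosen later, once the data had been seen.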

Additional observations from a re-analysis of the deposited data

Results flagged for a closer look

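A single library stood apart from the other 3 of its treatment in 4 of 108 groups of values examined, where chance gives about 1 in 20. Pdk4 was at 58.6 CPM in IgG 2 and at 26.8 to 31.2 CPM in the other controls. Crat, the carnitine acetyltransferase gene, was at 91.2 CPM in antiCD47 2 and at 127 to 129.7 CPM in the other antiCD47 libraries. Fgf21 was at 10.2 CPM in antiCD47 4 and at 6.02 to 6.57 CPM in the others, and Krt23 was at 3.78 CPM in antiCD47 4 and at 1.73 to 1.93 CPM in the others.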

How the results depend on the processing

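The count of genes of the set that rose, 3 as reported, was 0 with library totals, 1 with upper quartile scaling, 6 with DESeq2, 7 with voom and quality weights and 6 with IgG 2 and antiCD47 2 left out (an alternative chosen after seeing the data); the count that fell, 1 as reported, was 0 with DESeq2 size factors, 5 with library totals and 0 with IgG 2 and antiCD47 2 left out. Over fits that left out 1 library, 0 to 5 genes rose and 0 to 1 fell, while between 2 and 3630 of all genes passed. All genes passing numbered 3581 with library totals (12.0% of them higher, against 50.2% as reported; 39.6% with upper quartile scaling), 3174 with DESeq2, 4331 with voom and 1090 with IgG 2 and antiCD47 2 left out. The median of the mitochondrial genes moved to -0.20 and that of the peroxisomal genes to -0.082 with library totals. The cause of these moves was not tested. Acot1, Acot3 and Ehhadh each passed in 9 of 17 alternatives and Bdh1 in 8, all in 1 direction.

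The replicate numbers gave no pairing: deviations of same-numbered libraries correlated at 0.03, 0.16, -0.02 and 0.03 across genes. With the replicate block, 2425 genes passed, 3 of the set rose (Acot3, Cyp4a14 and Ehhadh) and 1 fell (Bdh1). Depth limits the lowest genes named most: Pex5l had 123 counts over all 8 libraries.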
